A study of Mus musculus with 9 samples.

Results

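Cells in clones were T cells whose paired T-cell receptor (TCR) was found in at least 2 cells of the same table. They were selected by measured values: a cell had exactly 1 productive TRB chain, with no more than 2 productive TRA chains of which the better covered in unique molecular identifiers (UMIs, tags that count captured molecules) was kept, and 2 cells matched when TRBV, TRBJ, the TRB junction, the TRAV subgroup, TRAJ and the TRA junction were the same to the base. In 8 tables, 670 of 18060 cells (3.71%) met this rule and fell into 308 clones, and the other 17390 were single cells. The tables came from single-cell V(D)J libraries of immune cells of 3 kinds of lymph node, inguinal (iLN), superficial cervical (sCLN) and deep cervical (dCLN), of female mice aged 10 to 11 months, either wild type (WT) or 5xFAD, a transgenic line that carries familial Alzheimer's disease mutations. Each of the 3 node types gave 1 WT and 1 5xFAD table, which are called the 6 main tables below, and there was a further dCLN table with CD4 in its title and 1 table of cells mixed over node types and genotypes. The labels do not give the number of animals behind a table, the promoter of the 5xFAD transgene or the strain of the mice, and the tables do not tie a cell to a hashtag antibody. Every table is therefore 1 sample, and all exact intervals below cover counting error only.

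A TCR is a pair of an alpha chain (TRA) and a beta chain (TRB), each joined in the thymus from V and J gene segments, with a D segment as well in TRB. The junction, which encodes the third complementarity-determining region that touches the antigen peptide, is made variable by trimmed segment ends and by bases added between segments without a template. A T cell passes its rearranged genes to all its daughters, so that the pair of junctions serves as a mark of common descent. A T cell can also rearrange and express TRA on both of its chromosomes, since this locus is less strictly held to a single productive allele than TRB.

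The tables held 3458 to 13049 contigs, and 11195 to 44858 TRB UMIs in the cells used. The CD4-titled table labelled WT held nearly the same cells as a table labelled 5xFAD, with 6829 barcodes shared of 6905 and 6915. It was used once, without a genotype, and 90 of its 95 clones were clones in the other table as well. The CD4-titled and mixed tables were called against another set of germline alleles than the 6 main ones, so clones were compared with single cells within each table. The tables held TCR contigs only, and no marker of a T-cell subset could be read from them.

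Clones were small. Of 308, 275 (89.3%) had 2 cells, 23 had 3 and 10 had 4 or more. Of the 10 with 4 or more, 9 were in the CD4-titled table and 1 in the mixed table. In the 6 main tables, 4 of 180 clones had more than 2 cells, each had 3, and all 4 were WT (113 clones, against 67 in 5xFAD). The junctions of the largest clones are given first, as the deposited consensus sequences, 5′ to 3′, in lower case, with the bases listed as added between V, D and J in capitals. Where no D gene was called for a TRB chain, the capitals can include bases of a D segment. The first 4 are the largest of the CD4-titled table, with 11, 6, 5 and 5 cells in the order printed.

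TRBV5/TRBJ2-2/TRAV5/TRAJ40, TRB junction: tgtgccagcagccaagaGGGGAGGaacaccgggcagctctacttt
TRBV5/TRBJ2-2/TRAV5/TRAJ40, TRA junction: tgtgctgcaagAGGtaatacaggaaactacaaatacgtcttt
TRBV5/TRBJ1-4/TRAV4/TRAJ48, TRB junction: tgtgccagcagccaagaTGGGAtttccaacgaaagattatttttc
TRBV5/TRBJ1-4/TRAV4/TRAJ48, TRA junction: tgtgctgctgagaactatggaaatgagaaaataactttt
TRBV19/TRBJ1-3/TRAV3/TRAJ26, TRB junction: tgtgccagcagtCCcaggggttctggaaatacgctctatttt
TRBV19/TRBJ1-3/TRAV3/TRAJ26, TRA junction: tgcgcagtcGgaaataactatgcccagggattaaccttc
TRBV23/TRBJ1-4/TRAV7/TRAJ26, TRB junction: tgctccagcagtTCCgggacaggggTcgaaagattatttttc
TRBV23/TRBJ1-4/TRAV7/TRAJ26, TRA junction: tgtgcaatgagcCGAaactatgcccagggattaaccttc

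The largest clone of all used TRBV5 with TRBJ2-2 and TRAV5 with TRAJ40, and its 11 cells carried 5 to 54 TRB UMIs and 2 to 17 TRA UMIs. Its TRB junction had 45 nucleotides with 7 added bases, and its TRA junction 42 with 3. The clone of 6 cells shared TRBV5 with it but no other segment. Its cells carried 7 to 16 TRB UMIs and 3 to 15 TRA UMIs, and its TRA junction had 0 added bases. The 2 clones of 5 cells both used TRAJ26, joined to TRAV3 in the clone with TRBV19 and to TRAV7 in the clone with TRBV23. Their TRB chains were carried by 3 to 37 and 11 to 32 UMIs. No cell of these 4 clones rested on a single UMI in either chain. Segments alone did not name a clone. Another CD4-titled clone, of 3 cells, had the segments and junction lengths of the clone of 6, with 1 added TRA base. A further one, of 4 cells, had those of the TRBV19 clone, with 8 added TRB bases against 2.

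The next 5 are 3 of the 4 clones of 3 cells of the main tables, in which the first and second were also found in another node, followed by the other 2 clones that were found in more than 1 node. All were WT.

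TRBV29/TRBJ1-4/TRAV10/TRAJ16, TRB junction: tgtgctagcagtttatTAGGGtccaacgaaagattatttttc
TRBV29/TRBJ1-4/TRAV10/TRAJ16, TRA junction: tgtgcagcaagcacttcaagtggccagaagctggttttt
TRBV26/TRBJ1-1/TRAV6/TRAJ31, TRB junction: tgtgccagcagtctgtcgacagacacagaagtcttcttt
TRBV26/TRBJ1-1/TRAV6/TRAJ31, TRA junction: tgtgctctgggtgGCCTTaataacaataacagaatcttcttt
TRBV13-1/TRBJ1-4/TRAV6/TRAJ52, TRB junction: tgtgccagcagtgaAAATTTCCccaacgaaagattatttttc
TRBV13-1/TRBJ1-4/TRAV6/TRAJ52, TRA junction: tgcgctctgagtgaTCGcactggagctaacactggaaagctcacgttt
TRBV13-1/TRBJ2-7/TRAV11/TRAJ18, TRB junction: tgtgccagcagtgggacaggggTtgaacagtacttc
TRBV13-1/TRBJ2-7/TRAV11/TRAJ18, TRA junction: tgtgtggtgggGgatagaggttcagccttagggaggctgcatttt
TRBV16/TRBJ2-7/TRAV16/TRAJ53, TRB junction: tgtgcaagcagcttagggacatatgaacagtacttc
TRBV16/TRBJ2-7/TRAV16/TRAJ53, TRA junction: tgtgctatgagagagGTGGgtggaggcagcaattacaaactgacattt

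The clone with TRBV29 and TRAV10 was seen in 3 cells of the sCLN (4, 13 and 32 TRB UMIs) and in 2 cells of the iLN (7 and 8). It was the only clonotype that formed a clone in more than 1 node. The clone with TRBV26, TRAV6 and TRAJ31 was seen in 3 dCLN cells (2, 7 and 7 TRB UMIs) and 1 iLN cell (7), and its TRB junction had 0 added bases. The iLN clone of 3 used TRBV13-1 with TRAV6 and TRAJ52, at 4, 4 and 5 TRB UMIs. The clone with TRAV11 and TRAJ18 had the TRA junction of 45 nucleotides that marks the invariant chain of natural killer T cells, which recognise lipids on CD1d, and it had 2 cells in the sCLN and 1 in the dCLN. The clone with TRBV16 and TRAV16 had 2 cells in the iLN and 1 in the sCLN, and again 0 added bases in TRB.

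Of the last 2, the first is the largest clone of the mixed table, with 4 cells, and the second is a pair of 5xFAD cells in different nodes. The latter was no member, as it had 1 cell in each table, and shows what was shared between 5xFAD nodes.

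TRBV13-2/TRBJ1-5/TRAV5/TRAJ43, TRB junction: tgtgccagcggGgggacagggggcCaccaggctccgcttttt
TRBV13-2/TRBJ1-5/TRAV5/TRAJ43, TRA junction: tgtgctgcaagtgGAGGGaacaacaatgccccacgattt
TRBV31/TRBJ2-3/TRAV8/TRAJ17, TRB junction: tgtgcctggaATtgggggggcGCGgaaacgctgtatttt
TRBV31/TRBJ2-3/TRAV8/TRAJ17, TRA junction: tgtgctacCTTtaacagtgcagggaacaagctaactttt

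The mixed clone carried 4 to 20 TRB UMIs and 2 to 6 TRA UMIs. The 5xFAD pair was seen once in the sCLN (21 TRB and 15 TRA UMIs) and once in the iLN (23 and 12), so both cells were well covered.

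The share of cells in clones differed widely between tables. In the dCLN it was 8.64% in WT (106 of 1227 cells, 52 clones; exact Clopper-Pearson 95% interval 7.13 to 10.4) and 1.17% in 5xFAD (32 of 2742, 16 clones; 0.80 to 1.64). In the sCLN it was 6.50% in WT (73 of 1123, 36 clones; 5.13 to 8.10) and 3.61% in 5xFAD (84 of 2326, 42 clones; 2.89 to 4.45). In the iLN it was 3.02% in WT (51 of 1688, 25 clones; 2.26 to 3.95) and 1.56% in 5xFAD (18 of 1151, 9 clones; 0.93 to 2.46). Every WT table was above the 5xFAD table of the same node, but the iLN WT table was below the sCLN 5xFAD one. The CD4-titled table had 4.73% (233 of 4930, 95 clones; 4.15 to 5.36) and the mixed table had 2.54% (73 of 2873, 33 clones; 2.00 to 3.18).

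**Figure D1:**
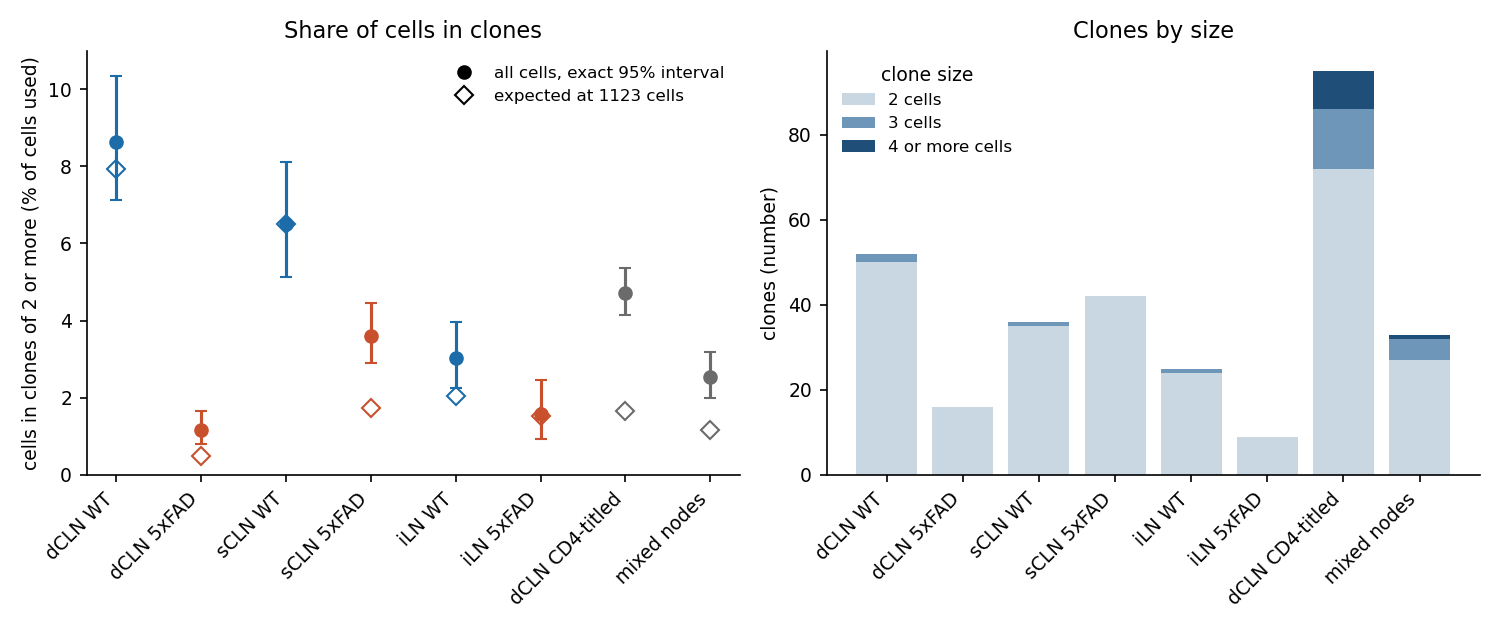
The left panel plots the share of cells in clones in each of the 8 tables, in percent, with the exact 95% interval (filled circles) and the share expected by formula at 1123 cells (open diamonds), WT in blue, 5xFAD in orange and the other tables in grey. The right panel stacks the number of clones by size. The WT point lies above the 5xFAD point in each node, from 8.64% against 1.17% in the dCLN to 3.02% against 1.56% in the iLN, and only the CD4-titled and mixed tables hold clones of 4 or more cells.

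Because a second cell of a clone is found more readily among more cells, the share was also computed by formula for 1123 cells, the smallest table. It was then 7.94%, 6.50% and 2.05% in dCLN, sCLN and iLN of WT, and 0.48%, 1.74% and 1.53% in those of 5xFAD. The WT mean was 5.50% ± 3.07 and the 5xFAD mean 1.25% ± 0.68 (SD over 3 nodes), a difference of -4.25 percentage points ± 3.50 (SD), lower in 5xFAD in 3 of 3 nodes. The exact sign-flip permutation test over 3 nodes gave a two-sided p of 0.25, the smallest that this design allows. Counted as pairs of cells of the same clone per 1000000 pairs, the dCLN had 74.5 in WT and 4.26 in 5xFAD, the sCLN 60.3 and 15.5, and the iLN 19.0 and 13.6. The CD4-titled and mixed tables had 19.3 and 11.6, and their shares at 1123 cells were 1.65% and 1.17%. Differences in the number of animals pooled cannot be told apart from differences in clone size here.

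Cells of a clone were compared in what the rule had not matched directly. The V region before the junction was identical over the common length in all cells of 308 of 308 clones, for TRB and for TRA alike (exact 95% interval 98.8 to 100%). The TRAV gene called also matched in 308 of 308, although the rule asked only for the subgroup. As the rule had matched the TRBV gene, the TRAV subgroup and both junctions, this agreement was largely set by it. Of 470 pairs of cells of the same clone, 11 had a second TRA chain in both cells, and the second junction was the same in 11 of 11 (71.5 to 100%). These were 5 CD4-titled, 3 mixed, 2 dCLN WT and 1 sCLN 5xFAD pairs. Pairs from the same clone can share cells, and the interval takes them as independent. Among single cells with a second TRA chain, 4 of 163740 pairs within a table had the same second junction. The second chain was often listed in only 1 cell of a pair, in 15 clone pairs, and 444 pairs had it in neither cell.

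The barcodes of the cells of a clone were about as far apart as those of other cells. They differed at 7 or more of 16 positions in all 470 pairs, with a median of 12 to 14 per table against 12 over all pairs of cells. Of all pairs of cells, 0.41% to 0.43% differed at fewer than 7 positions. As 7 was the smallest distance among clone pairs, 0 of them fell below it, and nothing is read from that count. Chains resting on 1 UMI were found in 0% to 3.12% (TRB) and 0% to 6.44% (TRA) of the cells in clones per table, against 0.96% to 3.36% and 1.06% to 10.3% of single cells. The part of free TCR RNA, which can give a droplet a chain of another cell, was not tested.

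Few single cells came close to the rule through their TRB chain. Of 17390, 122 (0.70%) shared their full TRB chain with another cell of the table but not the kept TRA chain, 26 of them matched through a second TRA chain, and 2 had a TRA junction 1 base off. Of the 122, 9 had the TRB chain of a clone. The TRA chain alone was shared by 688 single cells (3.96%), none of which had a TRB junction 1 base off that of the cell it matched. Another 4 single cells matched in amino acids but not in bases. Sharing through TRA alone was thus 688 cells against 122 through TRB alone, as single counts of the same tables.

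The chains of clones were also looked for with other partners. The TRB chain of 9 of 308 clones (2.92%, 1.34 to 5.47) occurred with another TRA chain in the same table, and the TRA chain of 19 (6.17%, 3.75 to 9.47) with another TRB chain. Among single cells those shares were 0.70% (0.58 to 0.84) for TRB and 3.96% (3.67 to 4.26) for TRA. In other tables, the TRB chain of 7 clones (2.27%, 0.92 to 4.63) and the TRA chain of 45 (14.6%, 10.9 to 19.1) occurred with any partner. Among single cells 1.13% (0.98 to 1.30) of TRB and 11.8% (11.3 to 12.3) of TRA chains did so. The intervals of clones and single cells were apart for TRB with another partner in the same table, and overlapped for the other 3 shares. The rule matched both chains, so clones hold TRB chains already seen in at least 2 cells of a table. Nothing is read from that gap.

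Complete clonotypes were compared between nodes. WT nodes shared 13 clonotypes with each other (8 between sCLN and iLN, 3 between dCLN and sCLN, 2 between dCLN and iLN), and 4 of these formed a clone in at least 1 node. They came from 5028336 pairs of clonotypes. The 5xFAD nodes shared 2, neither a clone, out of 11947604 pairs. A WT and a 5xFAD node never shared any (0 over 9 combinations), and 0 were shared over the 13 combinations that involved the CD4-titled or mixed cells. Of the WT clones, 5 of 113 (4.42%, exact interval 1.45 to 10.0) were seen in another WT node, against 21 of 3808 WT single cells (0.55%, 0.34 to 0.84). In 5xFAD, 0 of 67 clones were seen in another 5xFAD node, against 4 of 6085 single cells (0.07%). For the clones, a count of 0 allows up to 4.48% by the limit of 3 counts and 5.36% by the exact interval used for WT. Each shared clonotype was counted from both of its nodes, so these 4 cells were 2 clonotypes. The clone with TRBV29 and TRAV10 made up 2 of the 5 WT clones. The intervals take these linked counts as independent, which they were not. No barcode with the same junction occurred in any pair of the 8 tables, so the shared clonotypes were not the same barcodes listed again. Whether the 3 nodes of a genotype came from the same mice is not given in the labels.

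The number of TRB UMIs per cell, which the rule did not use, was lower in clones than in single cells in 7 of 8 tables. Each clone was counted once, as the mean of the log2 UMIs of its cells. Geometric means in clones and single cells were 6.47 and 7.53 in dCLN WT, 8.26 and 8.59 in sCLN WT, and 6.40 and 8.27 in iLN WT. In 5xFAD they were 6.57 and 9.08 in the dCLN, 6.37 and 9.27 in the sCLN, and 7.95 and 8.06 in the iLN. The mixed table had 5.33 and 6.19, and the CD4-titled table, at 8.28 and 7.21, was the exception. The mean difference was -0.21 ± 0.25 on the log2 scale (SD, n = 8 tables), a ratio of 0.86, with p = 0.039 by the exact two-sided sign-flip permutation test and 0.065 after Benjamini-Hochberg adjustment over 5 measures. It therefore missed the threshold of 0.05. These 5 measures include the second TRA share, whose test is not drawn on, here and in the adjusted p-values below. Over the other 4 measures the adjusted p was 0.073 by the same test. Without the CD4-titled table, left out because it was seen to be the exception, the difference was -0.27. Its adjusted p was then 0.026 by the exact permutation test, or 0.031 over 4 measures. Leaving out any other table gave adjusted p-values of 0.078 to 0.13 by the same test. With each member cell counted, the difference was -0.20 with an adjusted p of 0.12 by that test.

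TRA UMIs were higher in clones in 6 of 8 tables. Geometric means in clones and single cells were 5.73 and 4.73 in dCLN WT, 7.21 and 5.18 in sCLN WT, and 8.06 and 5.12 in iLN WT. In 5xFAD they were 5.51 and 5.71, 6.75 and 5.60, and 5.71 and 5.91 in the same order of nodes. They were 4.53 and 3.49 in the CD4-titled table and 5.67 and 4.07 in the mixed one. Clones lay just below single cells in dCLN and iLN of 5xFAD. The mean difference was 0.30 ± 0.25 (log2, SD, n = 8), a ratio of 1.23. By the same exact permutation test p was 0.031, with an adjusted p of 0.065, or 0.073 over 4 measures. Counted in sequencing reads instead of UMIs, the TRA difference turned to -0.15 ± 0.23 (exact permutation test, adjusted p = 0.23). That of TRB was then -0.09 ± 0.54 (exact permutation test, adjusted p = 0.77). In the main tables the TRA difference averaged 0.47 ± 0.19 over WT nodes and 0.06 ± 0.19 over 5xFAD nodes (SD, n = 3 each), lower in 5xFAD in 3 of 3 nodes, by -0.41 ± 0.26, with the smallest possible exact p of 0.25.

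**Figure D2:**
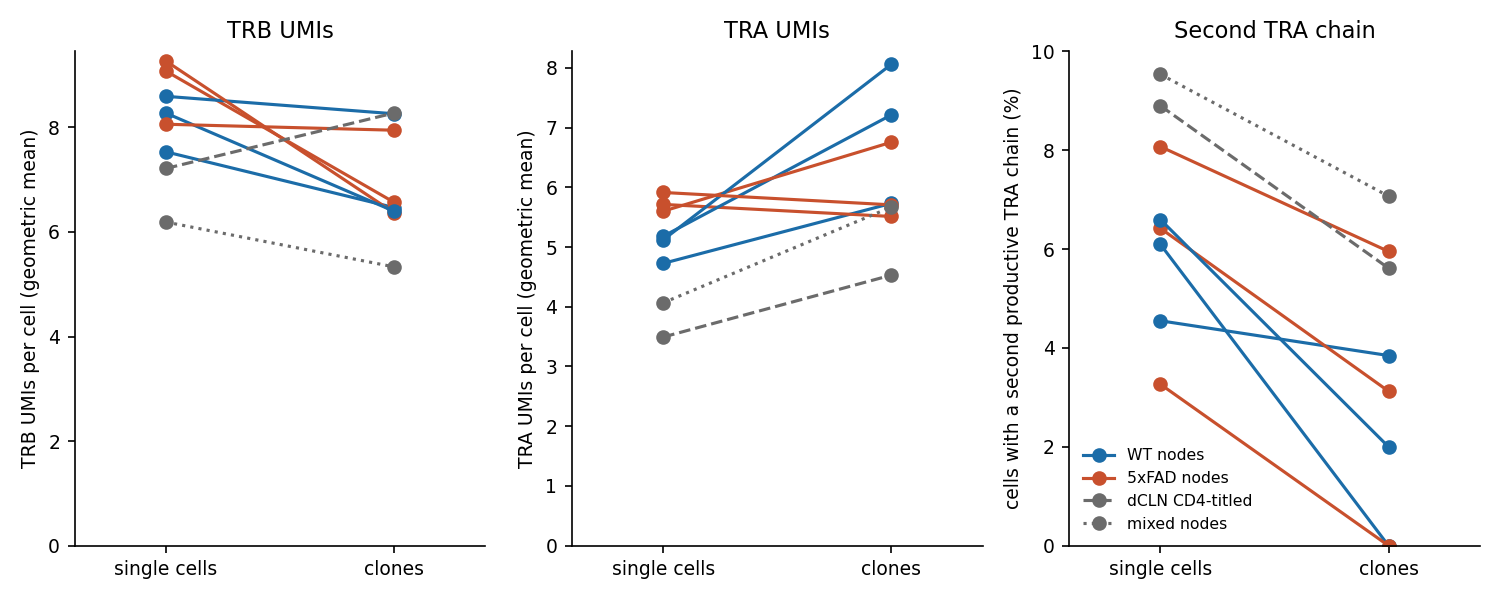
Each line joins the single cells and the clones of 1 table, for TRB UMIs and TRA UMIs per cell (geometric means) and for the share of cells with a second productive TRA chain (percent). TRB UMIs are lower in the clones of 7 of 8 tables, TRA UMIs are higher in those of 6 of 8, and the second TRA chain is less frequent in the clones of 8 of 8 tables.

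Cells with a second productive TRA chain were less frequent in clones. The shares in clones and single cells were 3.85% and 4.55% in dCLN WT, 0% and 6.10% in sCLN WT, and 2.00% and 6.60% in iLN WT. They were 3.12% and 6.42%, 5.95% and 8.07%, and 0% and 3.27% in dCLN, sCLN and iLN of 5xFAD, 5.61% and 8.90% in the CD4-titled table and 7.07% and 9.54% in the mixed table. Where the share was 0, a count of 0 allows up to 4.11% of the 73 member cells of sCLN WT and 16.7% of the 18 of iLN 5xFAD. These limits take the cells of a clone as independent. The shares count each clone once, over 36 clones of sCLN WT and 9 of iLN 5xFAD, for which the limits would be wider. The mean was 3.45% ± 2.68 in clones and 6.68% ± 2.13 in single cells (SD, n = 8), a difference of -3.23 points ± 1.62 (SD), lower in 8 of 8 tables. The rule bears on this measure, since only the TRA chain with most UMIs could match, so the difference is a description and no test is drawn on. When any TRA chain of a cell could match, which made 696 members in 319 clones, the difference was -1.20 points ± 2.01, and 2 of 8 tables were higher in clones. With TRB alone as the clonotype it was -1.13 points ± 1.68, and again 2 of 8 tables were higher.

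The length of the assembled contig differed little. A contig includes the V and J segments and the junction that the rule matched, so its length is not independent of the rule. The p-values of contig length are therefore given without a conclusion. The TRA junction within it differed by -1.04 nucleotides between clones and single cells. The TRB contig was 543 nucleotides ± 18.0 in clones and 544 ± 11.6 in single cells (SD, n = 8 tables), a difference of -0.71 with an adjusted p of 0.84 by the exact permutation test. The TRA contig was 541 ± 12.1 in clones and 545 ± 9.28 in single cells, a difference of -3.91 ± 4.40, shorter in 7 of 8 tables (exact permutation test, adjusted p = 0.068). The CD4-titled table was again the exception, at +6.40. Without it the difference was -5.38, with an adjusted p of 0.026 by the same exact test, or 0.031 over 4 measures. Leaving out any other table gave adjusted p-values of 0.12 to 0.14 by that test.

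Junction length and added bases were part of what defined a clone, so they are given as a description without a test. The TRB junction was 41.3 nucleotides ± 0.58 in clones and 41.8 ± 0.15 in single cells (SD, n = 8 tables). It was shorter in clones in 7 of 8 tables, by up to -1.16 in sCLN WT, and 0.23 longer in the CD4-titled table. The TRA junction was 39.5 ± 1.28 in clones and 40.5 ± 0.15 in single cells. It was shorter in clones in 7 of 8 tables, from -0.07 in the mixed table to -3.69 in iLN 5xFAD, which held 9 clones, and 0.14 longer in dCLN 5xFAD. TRA junctions of 36 nucleotides or fewer made up 27.3% of clones (84 of 308, exact interval 22.4 to 32.6) and 20.7% of single cells (3598 of 17390), pooled over tables. They were more frequent in the clones of 5 tables and less frequent in those of dCLN 5xFAD, iLN WT and the mixed table.

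**Figure D3:**
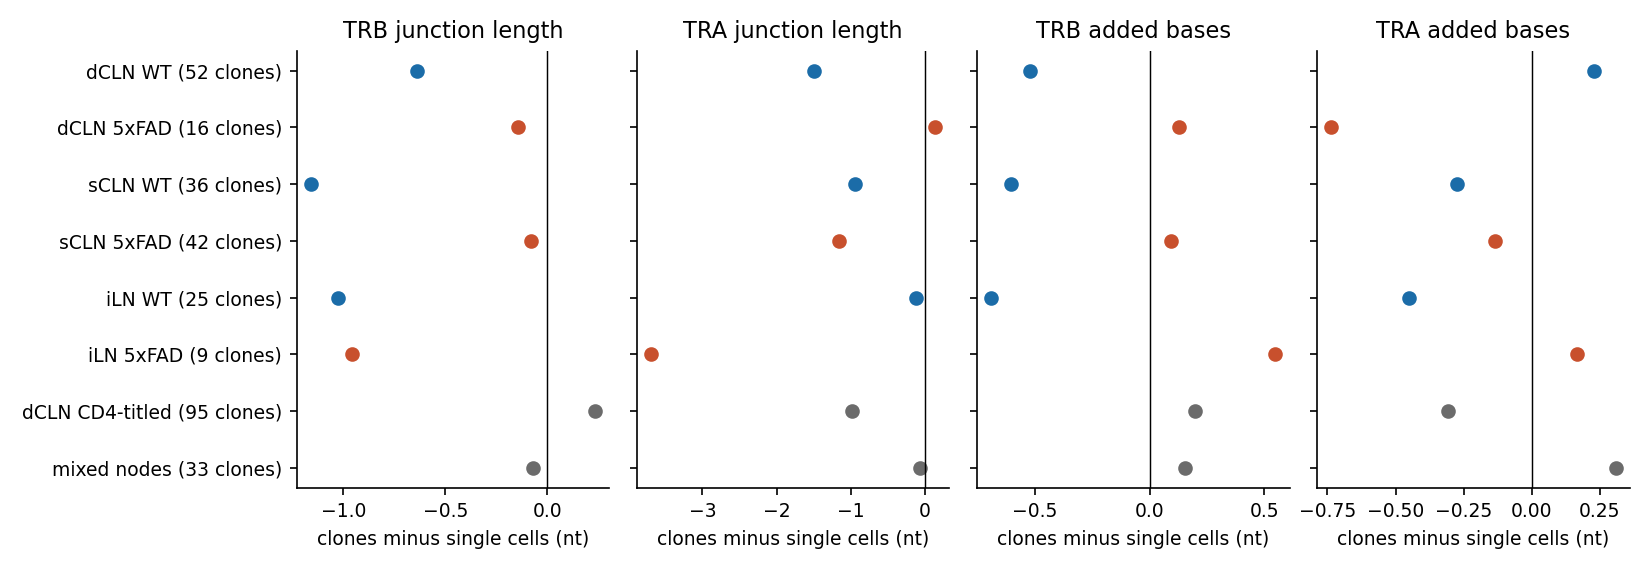
Each panel plots, for each table, the mean over clones minus the mean over single cells in nucleotides, for the junction lengths and the bases listed as added, with WT in blue, 5xFAD in orange and the other tables in grey. TRB junctions are shorter in the clones of 7 of 8 tables, and the TRB added bases are fewer in the 3 WT tables and more in the other 5.

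TRB junctions held 3.90 ± 0.48 added bases in clones and 3.99 ± 0.10 in single cells, and TRA junctions 2.51 ± 0.34 and 2.66 ± 0.09 (SD, n = 8 tables). The TRB difference was -0.52, -0.60 and -0.69 in dCLN, sCLN and iLN of WT, against 0.13, 0.09 and 0.55 in 5xFAD, 0.20 in the CD4-titled and 0.15 in the mixed table. All WT tables were thus below 0 and all 5xFAD tables above it. Over TRB chains with a called D gene alone, the WT values were -0.22, -0.16 and -0.69 and the 5xFAD values -0.05, 0.42 and -0.08, so the genotypes no longer had opposite signs. TRB chains without any added base, which lie closest to the germline, made up 10.1% of clones (31 of 308, 6.94 to 14.0) and 6.42% of single cells (1117 of 17390), and were more frequent in the clones of 6 tables and less in those of dCLN 5xFAD and the CD4-titled table. TRA chains without any made up 21.8% (67 of 308, 17.3 to 26.8) and 18.5%, higher in clones in 4 of 8 tables. Of the D segments, TRBD1 was called in 49.7% of clones (44.0 to 55.4) and 44.6% of single cells, and TRBD2 in 26.6% (21.8 to 31.9) and 30.0%. TRBD1 was higher in clones in 5 of 8 tables and TRBD2 in 4 of 8.

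Gene segments were compared as the number of clones that used each, against the number expected from the single cells of the same tables, with an exact Poisson 95% interval. Of 96 features, 73 had at least 5 expected clones (17 TRBV genes, 12 TRBJ genes, 13 TRAV subgroups and 31 TRAJ genes). Their median ratio was 1.02, and 13 of the 73 (17.8%) were past 1.5-fold, 3 higher (4.11%) and 10 lower (13.7%). The rule matched these genes, so nothing is read from that count. All 3 higher features were TRA segments. TRAJ40 had 18 clones with 10.9 expected (ratio 1.66, 0.98 to 2.62), of which 9 were in the CD4-titled table with 3.70 expected. TRAV10 had 15 with 9.26 expected (1.62, 0.91 to 2.67), and TRAJ27 had 16 with 10.1 expected (1.59, 0.91 to 2.58).

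Of the lower features, 5 were TRAJ genes. TRAJ22, on the plus strand of chromosome 14 from 54197248 to 54197307 (GRCm38), had 5 clones with 12.7 expected (ratio 0.39, 0.13 to 0.92). It had 2 with 5.71 expected in WT, 0 with 2.35 in 5xFAD, 2 with 2.89 in the CD4-titled table and 1 with 1.71 in the mixed one. TRAJ57 had 2 with 7.11 expected (0.28, 0.03 to 1.02), TRAJ53 had 2 with 5.88 (0.34), TRAJ42 had 4 with 8.57 (0.47) and TRAJ32 had 4 with 8.43 (0.47). The TRAV subgroups were TRAV12, with 15 clones and 26.7 expected (0.56, 0.31 to 0.93), and TRAV21, with 3 and 5.46 expected (0.55). In TRB, TRBV12-1 had 3 clones with 6.21 expected (0.48), and TRBJ1-2 and TRBJ1-3, neighbours on chromosome 6 from 41534001 to 41534376, each had 11 with 17.0 and 16.9 expected (both 0.65). The features next to the threshold were TRBV19 and TRBJ2-2 on the high side, both at 1.49, and TRBV20 and TRAJ30 on the low side, both at 0.68.

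**Figure D4:**
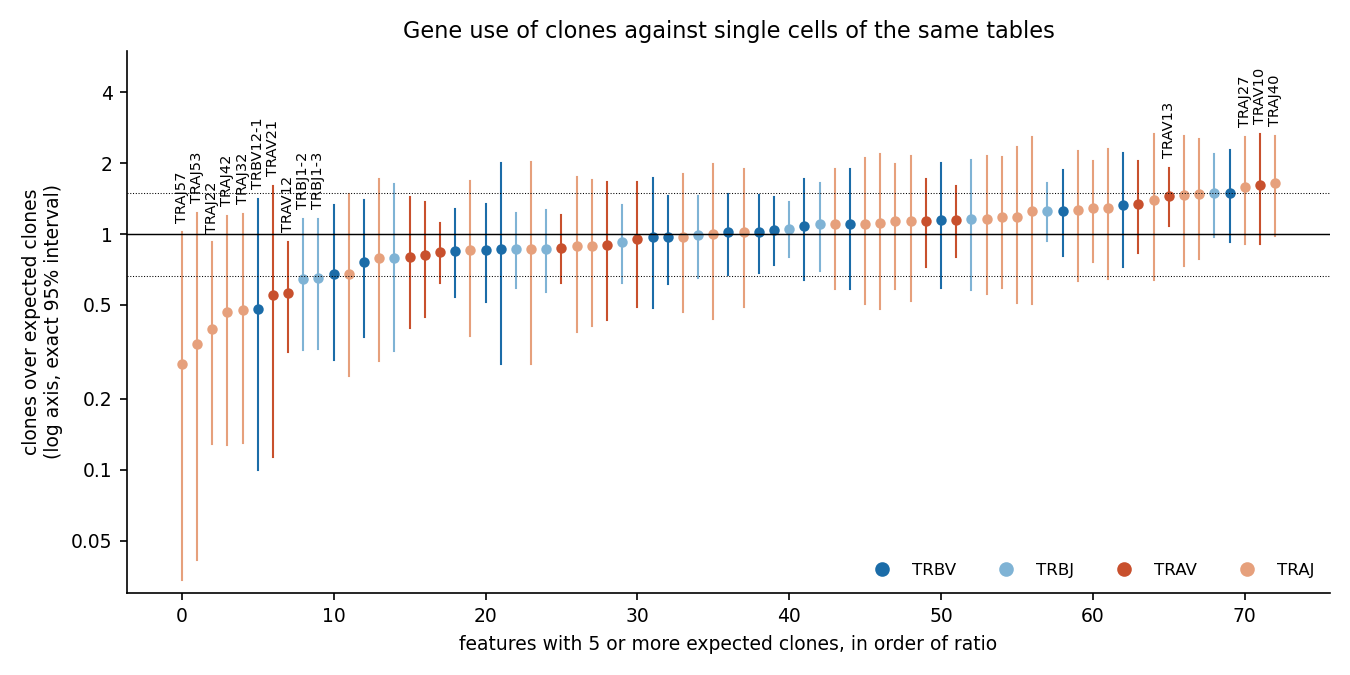
The 73 features with at least 5 expected clones are ordered by the ratio of clones found to clones expected (log axis), with exact Poisson 95% intervals and dotted lines at 1.5-fold either way, and the colours give the segment kind. Names mark the 13 features past 1.5-fold and TRAV13. The intervals of 3 of the 73 features (TRAJ22, TRAV12 and TRAV13) exclude 1.

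The intervals of 3 of 73 features (4.11%) excluded 1, namely TRAJ22, TRAV12 and TRAV13, and 95% intervals can be expected to miss the true value in about 5% of features. TRAV13, singled out after its values were seen, had 51 clones with 35.1 expected (ratio 1.45, 1.08 to 1.91). It was above expectation in both genotypes of the main tables, with 24 clones and 13.9 expected in WT and 20 and 9.60 in 5xFAD, but had 4 with 8.35 expected in the CD4-titled table and 3 with 3.22 in the mixed one. TRBV19, also singled out after its values were seen, had 16 clones with 6.96 expected in the CD4-titled table and 3 with 4.94 in the 6 main tables.

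The gene groups lay close to expectation. The TRBJ1 cluster, the upstream of the 2 TRBJ clusters, was used by 94 clones with 109 expected (ratio 0.86, 0.70 to 1.05), and TRBJ2 by 214 with 199 expected (1.08, 0.94 to 1.23). TRAJ genes numbered 40 or above, which lie nearest the V genes, were used by 101 clones with 102 expected (0.99). The TRBV13 family had 80 clones with 82.3 expected (0.97). TRAV4 and TRAV14, known for use in CD4 T cells, had 58 with 50.7 expected (1.14, 0.87 to 1.48), higher in clones in 3 tables and lower in 5. They were used by 27.4% of CD4-titled clones against 18.1% of CD4-titled single cells, but by 11.1% against 16.5% in sCLN WT and by 0 of 9 clones against 12.1% in iLN 5xFAD. TRAV9, known for use in CD8 T cells, had 12 with 12.6 expected (0.95). Of these, 8 were CD4-titled (7.54 expected), 3 were mixed (2.40 expected) and 1 was in the main tables (2.67 expected). It was used by 7.94% of CD4-titled and 7.29% of mixed single cells, against 0.35% to 2.44% in the main tables. The CD4-titled and mixed tables were called against another set of germline alleles, and the cause was not tested.

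Chains of invariant T cells were rare among clones. The natural killer T chain was found in 1 of 308 clones, the sCLN clone printed above, and in 15 of 17390 single cells (0.09%). The chain of mucosal-associated invariant T cells, TRAV1 joined to TRAJ33 with a junction of 36 nucleotides, was found in 0 of 308 clones, where a count of 0 allows up to 0.97%, and in 24 single cells (0.14%).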

How the data were processed

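Single-cell V(D)J libraries were made with a 5′ kit after hashtag staining, and samples of low viability were dropped, per the labels' protocols. Cell Ranger 6.0.1, Seurat 4.1.0 and mm10 appear in the submitters' processing notes without a stated role. Contigs carry IgBLAST columns, per the file headers. Per the file headers, each contig has a deposited UMI count and a deposited read count, neither normalized. V identity, a deposited fraction, was not used in a result. Junction and added-base lengths are deposited in nucleotides. The 6 main tables list productive contigs only.

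Possible doublets, barcodes with more than 1 TRB or more than 2 TRA chains, were left out, and no doublet caller was run. The members and gene lists were chosen with earlier results of these data known. Named features were those with at least 5 expected clones and a ratio past 1.5, the listed groups, the largest clones and the clones found in several tables, not all of which are reported here. The 5 measures that the rule did not match directly between cells were tested over 8 tables by an exact two-sided sign-flip permutation test (Python 3.11.15, scipy 1.17.1, numpy 2.4.6, pandas 2.3.3), with Benjamini-Hochberg adjustment and a threshold of 0.05. The test of the second TRA share is not drawn on, since the rule's choice of the TRA chain bears on it. That choice also bears on TRA UMIs in cells with 2 TRA chains. The smallest p was 0.0078 over 8 tables and 0.25 over 3 nodes. P-values measure the spread between tables, not between animals. Shares have exact Clopper-Pearson 95% intervals and ratios exact Poisson ones, and a count of 0 was given a limit of 3 counts. Gene positions are from the GENCODE annotation of GRCm38. Clone calling, ratios and the test were checked on simulated data. Alternatives changed the clonotype, the cells, the unit, the filter and the tables.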

Additional observations from a re-analysis of the deposited data

Results flagged for a closer look

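The bases added in TRB junctions were set apart because the difference between clones and single cells had opposite signs in the genotypes, below 0 in 3 of 3 WT tables (mean -0.60 bases) and above 0 in 3 of 3 5xFAD tables (mean 0.26 bases). The gap of 0.86 bases was not tested. With D-called chains only, 2 of the 3 5xFAD values were below 0 as well.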

How the results depend on the processing

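The direction of the lower clone share in 5xFAD held under 8 alternatives, among them the share over all cells (-3.94 points) and pairs of the same clone per 1000000 pairs of cells (-40.1). Leaving out each table gave -6.11 to -2.64 points. With extra-chain barcodes kept, 3 measures that had missed the threshold passed it by the exact permutation test: TRB UMIs at -0.20, TRA UMIs at 0.29 and TRA contig length at -4.29 nucleotides (adjusted p = 0.049 each). Adjusted over 4 measures, without the second TRA share (chosen after seeing the data), these had 0.052 each, against 0.073 each with such barcodes left out and 0.042 each with TRB alone as the clonotype. TRB UMIs and TRA contig length had 0.031 without the CD4-titled table, and 0.094 to 0.15 without any other table, by the exact permutation test. No conclusion is drawn from the contig length, which includes what the rule matched. Reads in place of UMIs turned the TRA difference to -0.15, and the cause was not tested. The second TRA share was -1.20 points when any TRA chain could match (chosen after seeing the data), -1.13 with TRB alone, -2.93 with amino acid junctions and -3.35 in the 6 main tables, against -3.23, given without a test since the rule bears on it. Leaving out each table gave -3.59 to -2.82 points for it, -0.27 to -0.16 for TRB UMIs, 0.25 to 0.35 for TRA UMIs, -5.38 to -3.33 nucleotides for TRA contig length and -2.88 to 0.92 for TRB contig length, which changed sign in 4 of 8 cases. Features past the fold threshold numbered 6 of 73 at 2-fold, 27 of 87 with each member cell counted and 28 of 96 with no minimum. Without 1 table they numbered 14 to 19, of 64 to 73 features. D-called chains, cells with 1 TRA chain and agreement in the main tables were also chosen after seeing the data. No analysis paired by replicate number was possible because each group held 1 table, and the genotypes were paired by node instead. Small clone numbers, 9 in iLN 5xFAD, limit single tables.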
